A study of Homo sapiens with 6 samples.

Results

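Exons that lie inside annotated introns and that the annotation behind the junction tables does not join to that intron's ends were examined in K562, an established human line from a chronic myeloid leukaemia. An exon of 31 to 500 nt entered when its junctions into and out of the exon were both unannotated, had a recognised splice motif, and shared their outer ends with an annotated junction on the same strand that skips the exon. Each of the 3 junctions needed at least 10 uniquely mapped reads pooled over the 6 libraries, and the mean of both inclusion junctions plus the skipping junction had to reach 20 reads in every library. In all, 1768 combinations of such an exon with its host intron passed, 9.24% of the 19137 cassette exon combinations of any kind tested, and they comprise 1735 different exons in 1578 introns. Inclusion, in percent, was taken as reads per inclusion junction, averaged over the pair, out of those reads and the skipping reads together. The members were chosen by these read counts in all 6 libraries and by annotation status. The minimum of 10 reads was pooled over both groups, so that a rare exon could enter through the group in which it is high: 537 combinations reached it on both inclusion junctions in the wild-type libraries alone and 940 in the S34F libraries alone, 570 in S34F only and 167 in wild type only. Counts of rises over the members are therefore descriptions and support no direction. Poly(A)+ RNA was sequenced in 3 libraries labelled as wild-type U2AF1 (a knock-in) and 3 labelled as U2AF1 S34F, and the comparison asks how exon inclusion differs between them. The labels do not state clones or separate cultures, so p-values measure the spread between these libraries, which may be technical. Positions are 1-based in hg19, the build named in the submitters' processing notes, and genes, untranslated regions and exon sequences at them were not analysed here.

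Introns hold many sequence stretches that resemble exons, with an acceptor (3′ splice site), a donor (5′ splice site) and an exon-like distance between them. Most are ignored by the spliceosome or spliced in at a low level. An exon gained in this way can shift the reading frame or bring in a stop codon, and such transcripts are often degraded by nonsense-mediated decay, so that the spliced reads of an exon can understate how often it is made. U2AF1 is the small subunit of the factor that binds the AG at the acceptor when an intron is first recognised. S34F lies in a zinc finger that contacts the RNA and is known to change which acceptors are favoured according to the base just before the AG.

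The libraries held from 18074706 (S34F replicate 2) to 39279169 (S34F replicate 3) uniquely mapped spliced reads, and the median combination had 90.3 to 229 reads per library. Wild-type replicate 1 stood apart from the other wild-type libraries at these exons. Its inclusion values differed from those of wild-type replicates 2 and 3 by 2.50 and 2.74 percentage points on average, while replicates 2 and 3 differed from each other by 1.88 and the S34F libraries from each other by 2.01 to 2.24. Against the S34F libraries, wild-type replicate 1 differed by 2.79 to 2.89 points and the other wild-type libraries by 3.19 to 3.79. The pattern was not particular to these exons. Over all combinations tested, wild-type replicate 1 differed from replicates 2 and 3 by 3.29 and 3.77 points. Replicates 2 and 3 differed there by 2.95 and the S34F libraries from each other by 2.83 to 3.33. The counts of calls and of separated groups below are therefore also given without wild-type replicate 1.

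Unannotated exons had the size of ordinary internal exons. Their median length was 100.5 nt (quartiles 69 and 138 nt), compared with 111 nt (78 and 154) for the 8327 combinations in which both inclusion junctions and the skipping junction are annotated. In all, 703 combinations were 51 to 100 nt long and 522 were 101 to 150 nt, and 72 exceeded 300 nt. A length divisible by 3, which leaves the reading frame open across the exon unless it holds a stop codon, was found in 627 of 1768 (35.5%), and the other remainders in 31.2% and 33.3%. Among the annotated exons 41.6% were divisible by 3. These differences were not tested.

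**Figure D1:**
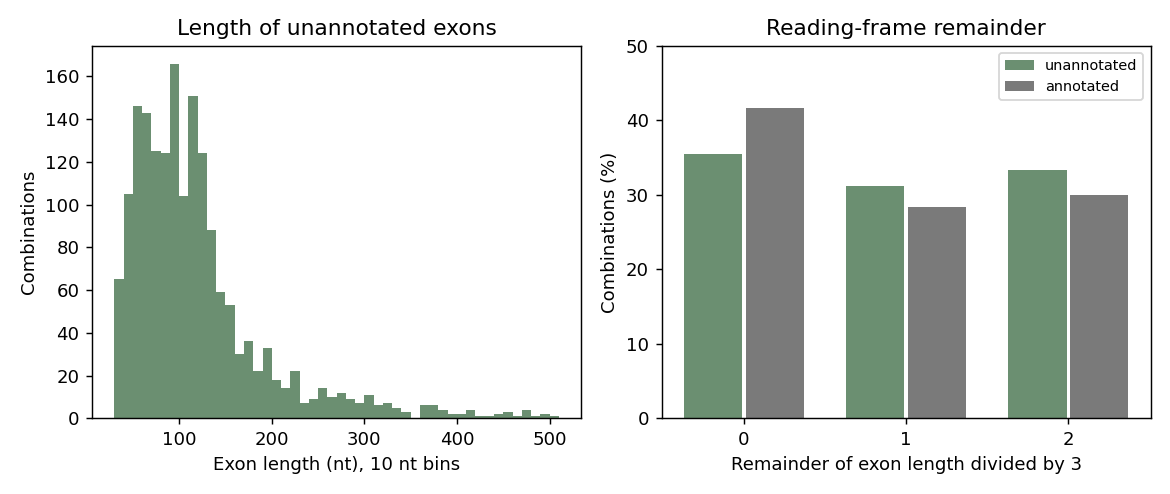
Left, lengths of the 1768 unannotated combinations in bins of 10 nt; right, percentage of combinations by the remainder of exon length divided by 3, for unannotated exons and for exons with all junctions annotated. Unannotated exons peak near 100 nt, and 35.5% of them are divisible by 3 against 41.6% of annotated exons.

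Host introns and splice motifs were also ordinary. The median host intron spanned 4741 nt (4676 nt for annotated exons), with a median of 1742 nt before the exon and 1853 nt after it, and in the median combination 50.5% of the remaining intronic sequence lay before the exon. Every one of the 1768 combinations used GT-AG on both sides. Among annotated exons 206 of 8327 (2.47%) had another motif on at least 1 side. Of the unannotated junctions with at least 10 pooled reads anywhere, 99.6% were GT-AG and 0.349% GC-AG. The junction filters used upstream are not given in the sources used here.

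Most of these exons were wholly outside the annotation. In 1708 combinations neither splice site belonged to any annotated junction present in the tables, in 22 only the acceptor did, in 25 only the donor did, and in 13 both did. The last group holds annotated sites joined to a new partner. The junctions into and out of an exon had similar reads, with a median ratio of 0.909, and 1627 combinations (92.0%) had reads within 4 times of each other, compared with 83.1% of annotated exons. The median exon took 100% of the reads at its own acceptor, and of those at its own donor, from the host intron's ends. Multi-mapped reads were absent from both inclusion junctions in 1299 combinations and exceeded 10% in 50, compared with 1425 of 8327 annotated ones.

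Some of the exons came in variants that share a splice site and therefore share reads. The 1735 exons formed 1603 separate stretches of sequence. In all, 60 acceptors were joined to at least 2 donors and 69 donors to at least 2 acceptors within the set. Of the host introns, 1413 held 1 combination and 165 held more, up to 5. In the introns with several there were 74 pairs of exons that do not overlap, and 47 of those pairs were linked to each other by a junction, 13 of them with at least 10 reads. The most-read link, with 566 reads, joined the 84 nt exon at chr1:16969262-16969345 to the 142 nt exon at chr1:16961522-16961663, both among the exons of highest inclusion described below. The next among unannotated links, with 137 reads, joined the 113 nt exon at chr22:19386603-19386715 to the 69 nt exon at chr22:19392986-19393054. The last 2 exons were picked for this link after their values were seen. They had means of 12.7% ± 0.77 and 16.3% ± 3.5 in wild type and of 6.24% ± 2.1 and 9.74% ± 3.0 in S34F (SD, n = 3 each), and neither passed the test defined below (edgeR adjusted p = 0.0863 and 0.171).

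Inclusion was low in nearly every case. Averaged over the 6 libraries it was under 1% in 341 combinations, 1% to 5% in 894, 5% to 10% in 339, 10% to 20% in 116 and at least 20% in 78. The median was 2.93%, against 84.5% for annotated exons. Per library the median was 2.67%, 1.83% and 1.76% in wild-type replicates 1, 2 and 3 and 2.97%, 2.64% and 3.16% in S34F replicates 1, 2 and 3. Wild-type replicate 1 thus lay above S34F replicate 2 and the groups overlapped, while the other wild-type libraries lay below every S34F library. In 1428 combinations (80.8%) an inclusion read was seen in all 6 libraries. The number with no inclusion read in a library went from 4 in S34F replicate 3, the deepest, to 185 in wild-type replicate 3, and it was 65 in S34F replicate 2, the shallowest. The share of all unique spliced reads that fell on unannotated junctions was 1.25%, 1.03% and 1.15% in wild type, against 1.30%, 1.24% and 1.38% in S34F. The part of depth and of this share in the inclusion levels was not tested.

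**Figure D2:**
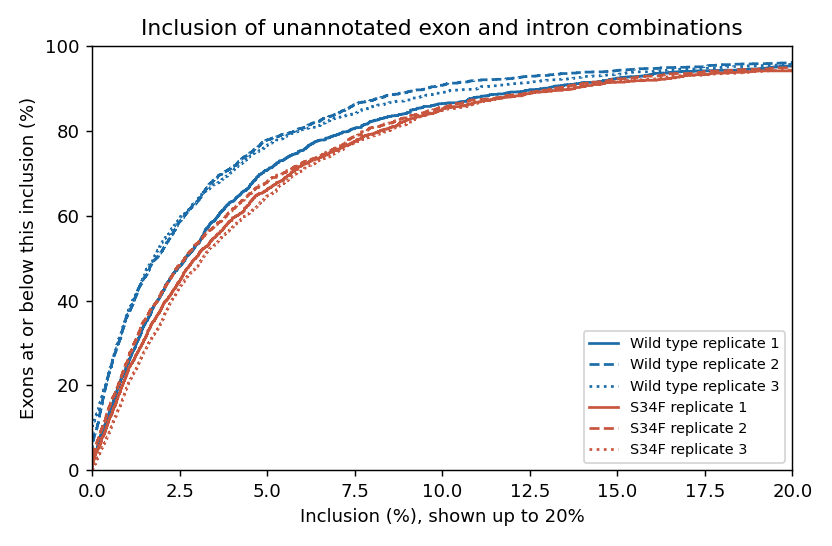
Cumulative percentage of the 1768 combinations (vertical axis) at or below each inclusion value in percent (horizontal axis, shown up to 20%), 1 line per library. The lines of wild-type replicates 2 and 3 lie above the rest, with medians of 1.83% and 1.76%, and wild-type replicate 1 runs close to the S34F libraries.

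Values of the members nearest to the limits follow without a test. Just inside the 20-read limit were an 86 nt exon at chr1:38352245-38352330 (mean inclusion 13.5% in wild type and 4.35% in S34F) and a 36 nt exon at chr1:100474844-100474879 (9.49% and 20.7%). Just outside, with 19.5 reads in their shallowest library, were chr6:101253893-101253946 (6.37% and 7.66%) and chrX:110960181-110960232 (7.94% and 8.94%). At the length limit were chr10:5844273-5844303 (31 nt, 1.48% and 1.51%) and chr16:22337992-22338022 (31 nt, 7.18% and 7.74%), and outside it chr5:145861010-145861039 (30 nt, 1.89% and 0.804%) and chr6:42184698-42184727 (30 nt, 1.98% and 2.89%). With 10 pooled reads on the weakest junction were chr1:10182854-10182917 (0.222% and 1.79%) and chr1:20225330-20225446 (6.20% and 2.29%), and with 9 chr1:27174194-27174315 (2.12% and 3.13%) and chr1:27270095-27270252 (0.358% and 0.225%). Otherwise eligible, 545 combinations failed only the limit of 20 reads per library, 30 eligible exons were shorter than 31 nt, and 228 had 9 pooled reads on their weakest junction. Of the members, 202 had exactly 10.

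S34F was compared with wild type by edgeR's quasi-likelihood test on inclusion against skipping reads, fitted on all 19137 combinations with Benjamini-Hochberg adjustment over all of them. An exon was called when its adjusted p was under 0.05 and the group means differed by at least 10 percentage points. Of the 1768 combinations of unannotated exons, 21 (1.19%) passed both, and S34F was above wild type in 19 of them and below it in 2. The background over all combinations was 2.49% called, 0.92% higher and 1.57% lower. The share of unannotated exons called was thus below the background in all and close to it for rises (1.07%) in this fit. This background was not matched for inclusion. A 10-point difference of group means cannot occur under 5% mean inclusion, where most unannotated exons lie, or equally close to full inclusion. At 5% to 10%, 7 of 339 unannotated exons and 16 of all 1157 combinations were called. At 10% to 20% the counts were 8 of 116 and 38 of 896, and at 20% or more 6 of 78 and 423 of 14219. These shares were not tested. The share called was above the background with both inclusion junctions summed, where 61 (3.45%, background 2.07%) were called, and among the 137 combinations with at least 50 pooled reads on each inclusion junction, where 8 (5.84%, background 2.84%) were. Summing sets both inclusion junctions against the skipping junction and enlarges differences at low inclusion. The median difference of unannotated exons was 1.12 points with the sum and 0.584 with the mean. By the edgeR test above, the 19 rises and 2 falls of unannotated exons stood beside 176 rises and 301 falls in all. Without the minimum difference 68 passed (3.85%, background 5.49%), of which 56 were rises (3.17%, background 1.71%) and 12 were falls (0.679%, background 3.78%). The count of calls changed with each library left out, and the background changed with it. Without S34F replicate 3 edgeR called 0 (background 0.0523%), while 286 (16.2%, background 16.1%) had an unadjusted p under 0.05. Without S34F replicate 1, S34F replicate 2, wild-type replicate 2 and wild-type replicate 3 the counts were 3, 3, 4 and 10 (backgrounds 0.502%, 0.507%, 0.638% and 1.56%). Without wild-type replicate 1 the count was 63 (3.56%, background 5.29%), with 45 rises (2.55%, background 2.07%) and 18 falls (1.02%, background 3.21%), and all 21 were among them. DESeq2 called 8 (0.452%, background 1.36%), 7 rises (background 0.476%) and 1 fall (background 0.888%). The log2 odds fitted with limma gave 0 calls (background 0%), although 493 combinations (27.9%, background 22.7%) reached an unadjusted p under 0.05. The backgrounds under the other settings, whose counts the closing section gives, were 1.96% with the newer dispersion estimate, 2.20% with at least 50 reads, 2.30% with no minimum per library and 2.35% with multi-mapped reads. They were 0.685% with the longer overhang, 1.22% with limma and a trend, 1.11% with a minimum difference of 20 points and 1.11% with the replicate number as a block. They were 2.31% with inclusion junctions within 4 times of each other, 2.49% with 1 skipping junction per exon and 2.70% and 2.73% with at least 20 and 100 pooled reads on each inclusion junction.

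The group mean was higher in S34F in 1158 combinations (65.5%), compared with a background of 47%. That background varied with inclusion. Over all combinations it was 58.9% to 60.0% in the ranges of mean inclusion under 20% and 42.7% at 20% or more. Under 1%, at 1% to 5% and at 5% to 10%, the share was 66.6%, 65.7% and 66.4% of unannotated exons. At 10% to 20% it was 59.5% of them, and at 20% or more 64.1%. The median difference was 0.58 percentage points (quartiles -0.44 and 2.31) against -0.09 over all combinations and 0.0019 over exons with all junctions annotated. It ranged from 0.429 to 0.714 when each library was left out in turn. All 3 S34F libraries lay above all 3 wild-type libraries in 412 combinations (23.3%, background 12.7%), and below them in 172 (9.73%, background 16.7%). In the ranges under 20% mean inclusion, the share wholly above was 18.75% to 22.3% of all combinations and 21.4% to 29.3% of unannotated exons. Without wild-type replicate 1, a setting chosen after seeing the data, the counts were 693 (39.2%, background 19.6%) and 234 (13.2%, background 25.6%). With higher pooled minimums on each inclusion junction, chosen after seeing the data, the group mean was higher in S34F in 66.0% of 676 combinations at 20 reads, 62.8% of 137 at 50 and 54.5% of 44 at 100 (all combinations 45.2%, 43.3% and 41.9%). At 100 reads the S34F libraries lay wholly above wild type in 20.5% and wholly below in 18.2%. The differences were small, and 1492 combinations (84.4%) differed by less than 5 points.

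Unannotated and annotated exons in the same range of mean inclusion were set side by side. Among combinations at 1% to 5% mean inclusion, the median difference was 0.76 points for the 894 unannotated exons and 0.17 for the 873 annotated ones. At 5% to 10% it was 2.39 points for 339 unannotated and 0.73 for 587 annotated exons, and at 10% to 20% 1.94 points for 116 and 1.78 for 537. S34F libraries lay wholly above wild type in 27.7% of the unannotated and 17.7% of the annotated exons at 5% to 10%. In the range of 20% to 50% the shares were close, 26.9% of 67 unannotated and 25.5% of 730 annotated exons, and above 50% they were 9.09% of 11 and 11.6% of 5327. These shares describe the sets and were not tested.

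**Figure D3:**
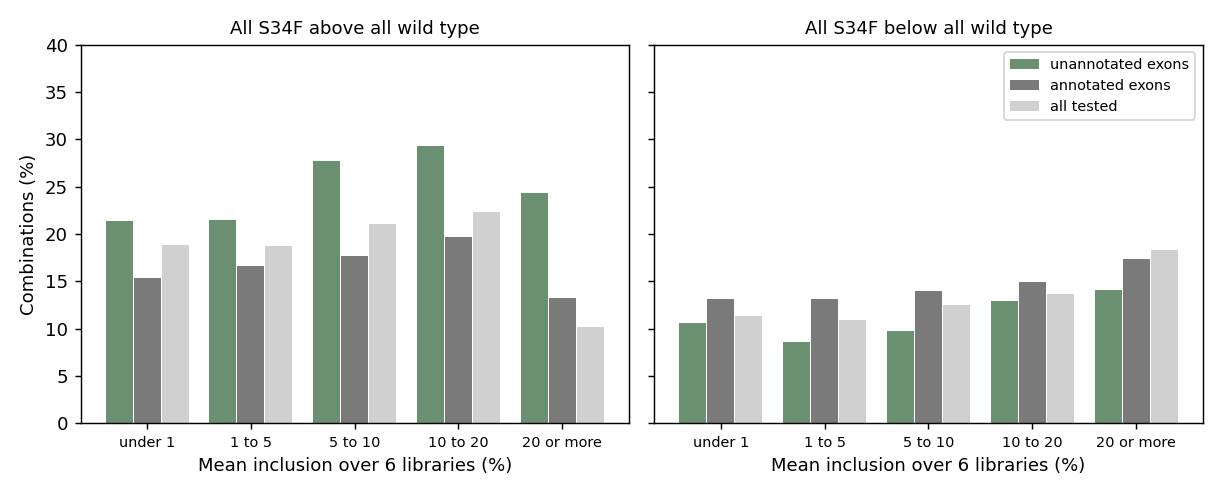
Percentage of combinations (vertical axis) in which all 3 S34F libraries lay above (left) or below (right) all 3 wild-type libraries, by mean inclusion over the 6 libraries in percent (horizontal axis), for unannotated exons, exons with all junctions annotated and all combinations tested. Unannotated exons reach 29.3% on the left at 10% to 20% inclusion and stay at or below 14.1% on the right. The last range, of at least 20%, holds mostly exons above 50% in the annotated set (5327) and few in the unannotated set (11).

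**Figure D4:**
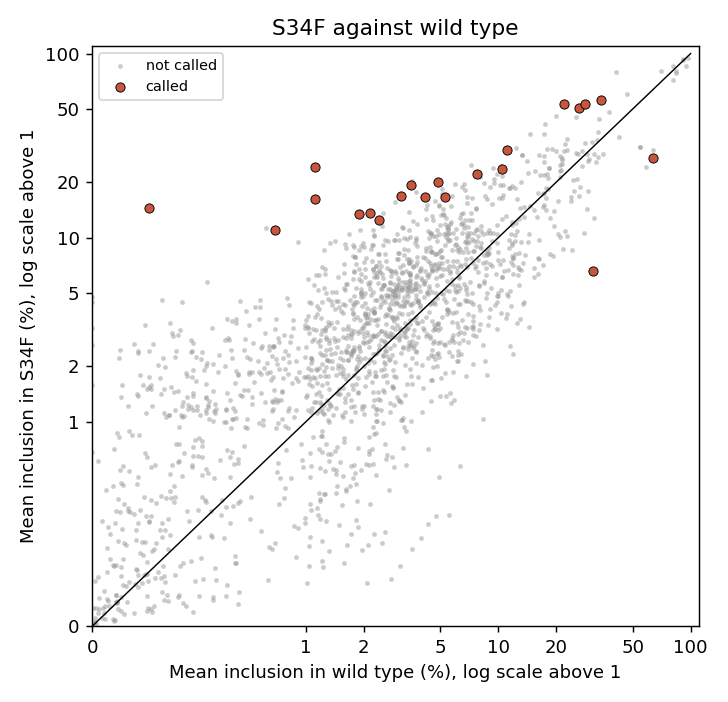
Mean inclusion in S34F (vertical axis) against wild type (horizontal axis), in percent, linear below 1 and logarithmic above, 1 point per combination (n = 3 libraries per mean), with the line of equality. Of the 21 called points, 19 lie above the line and 2 below it.

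Many of the calls were of exons with low inclusion in wild type, but low inclusion was more common in the whole set. Of the 19 rises, 13 started from a wild-type mean under 10%, and 2 of these from under 1%. Averaged over the 6 libraries, 1574 of the 1768 combinations (89.0%) were under 10%. On that measure 7 of the 21 calls lay at 5% to 10%, 8 at 10% to 20% and 6 at 20% or more. The minimum of 10 pooled reads on both inclusion junctions was reached in wild type alone by 7 of the 19, in S34F only by 9 and in neither group alone by 3, so that their p-values come after a filter that S34F reads helped to pass. First by adjusted p was chr6:8432440-8432507, a minus-strand exon of 68 nt in an intron of 4227 nt. It was at 3.36%, 0% and 0% in wild-type replicates 1 to 3 and at 22.2%, 22.2% and 28.3% in S34F, from 31 to 111.5 reads per library. A count of 0 in wild-type replicates 2 and 3 allows up to 5.00% and 9.68% at 3 counts per library, and the groups do not overlap. The difference was 23.1 points (log2 odds 4.55, SE 0.74, edgeR adjusted p = 0.0033), and it was called in 5 of the 6 fits that leave out a library. On its weakest junction it had 1 read in wild type and 47 in S34F, so that it reached the minimum of 10 reads in S34F only. A longer form of 141 nt, chr6:8432367-8432507, uses the same acceptor and another donor and thus shares reads with it. That form went from 1.12% ± 1.9 to 16.2% ± 0.36 (SD, n = 3 each, edgeR adjusted p = 0.0131). With 1 read in wild type and 16 in S34F on its weakest junction, it also reached the minimum in S34F only.

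Wild-type inclusion was also near 0 at chr21:18979924-18979988, an exon of 65 nt on the minus strand with 22 reads in and 12 out in all. The weaker junction had all 12 of its reads in S34F, so that the exon entered only through the group in which it is high. Inclusion was 0.80%, 0% and 0% in the wild-type libraries, and S34F gave 15.8%, 17.1% and 10.7%. The difference was 14.3 points (log2 odds 6.48, SE 1.19, edgeR adjusted p = 0.00747). It was called in 5 of the 6 fits with a library left out, as was the 68 nt exon above, and these were the only called exons of the 17 examined singly to hold in 5. Those fits kept the members chosen on all 6 libraries, and both exons reached the read minimum in S34F only. Holding in 5 fits is therefore no independent support. A count of 0 allows up to 4.62% and 4.29% in wild-type replicates 2 and 3. The next lay in the shortest host intron among the calls, of 665 nt: the 125 nt exon chr1:162470440-162470564 on the plus strand was at 1.71%, 0% and 0.855% in wild type and at 8.57%, 9.72% and 14.5% in S34F (log2 odds 3.77, SE 0.72, edgeR adjusted p = 0.00832). All reads at both of its splice sites came from this intron. On its weakest junction it had 1 read in wild type and 40 in S34F, so that it too reached the read minimum in S34F only.

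Further exons rose from a few percent in every wild-type library. The 65 nt exon chr12:49053700-49053764, minus strand, was at 3.49%, 2.76% and 4.29% in wild type and at 25.2%, 18.4% and 14.6% in S34F (edgeR adjusted p = 0.0141). Only 50.6% of the reads at its acceptor came from the host intron, and with the junction into the exon taken alone its adjusted p was 0.0772 (0.00329 to 0.0853 over all alternatives). The 63 nt exon chr5:78937278-78937340, plus strand, went from 5.26%, 3.42% and 3.81% to 15.2%, 13.95% and 20.5% (edgeR adjusted p = 0.0198). The 189 nt exon chr8:17799156-17799344, plus strand, went from 4.48%, 1.80% and 3.13% to 16.5%, 19.4% and 14.6% (edgeR adjusted p = 0.0214). In each of these 3 exons every S34F library lay well above every wild-type library.

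The remaining rises from a low level held in fewer settings. The 114 nt exon chr7:23358043-23358156 went from 2.39% ± 0.72 to 12.4% ± 2.8, the 94 nt exon chr10:38304895-38304988 from 2.15% ± 0.92 to 13.6% ± 5.1 and the 126 nt exon chr15:73072538-73072663 from 1.89% ± 2.0 to 13.5% ± 3.5 (SD, n = 3 each, edgeR adjusted p = 0.0255, 0.0327 and 0.0376). For these the call held in 1 of the 6 fits with a library left out, the one without wild-type replicate 1. Each had 3 reads on its weakest junction in wild type, against 11, 17 and 13 in S34F. They thus reached the minimum of 10 reads in S34F only. The 33 nt exon chr22:19462591-19462623, minus strand, was at 7.50%, 7.55% and 8.11% in wild type and at 22.6%, 22.8% and 20.7% in S34F (edgeR adjusted p = 0.0351). It is the 1 called exon with both sites annotated elsewhere: only 1.14% of the reads at its acceptor and 0.107% of those at its donor joined it to this intron. Its junctions were uneven, with 122 reads in and 12 out, and with the junction out of the exon alone the adjusted p was 0.751 (0.0244 to 0.751 over all alternatives).

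Several exons were already well included in wild type and rose further. The 108 nt exon chr10:124765756-124765863, minus strand, had the largest called rise. It was at 23.8%, 23.8% and 18.0% in wild type, and the S34F libraries gave 62.7%, 44.4% and 53.1%, from 27 to 37.5 reads per library. The difference was 31.5 points (log2 odds 1.96, SE 0.51, edgeR adjusted p = 0.0320). The 441 nt exon chr16:89607352-89607792, plus strand, was at 34.8%, 21.4% and 28.3% in wild type and at 58.0%, 50.8% and 50.7% in S34F (edgeR adjusted p = 0.0317). A 403 nt form with the same acceptor, chr16:89607352-89607754, went from 26.3% ± 8.2 to 50.6% ± 3.7 (edgeR adjusted p = 0.0344). The acceptor they share had 458 reads, against 65 and 14 on their donors, and with the junction out of the exon alone the adjusted p was 0.115 and 0.704 (0.00522 to 0.150 and 0.00507 to 0.704 over all alternatives). The 55 nt exon chr1:65847504-65847558, plus strand, was at 20.7% in wild-type replicate 1 against 7.22% and 5.43% in the other wild-type libraries, and at 31.8%, 24.7% and 33.3% in S34F (edgeR adjusted p = 0.0313), so that wild-type replicate 1 lay closest to the S34F range.

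The other 4 called exons all rose, by 11.4 to 21.9 points, with edgeR adjusted p from 0.0416 to 0.0485. They fall outside the rule that took 15 rises by adjusted p and were named after their values were seen. The 42 nt exon chr6:157357969-157358010 lay in the longest host intron among the calls, of 149085 nt, and was at 38.7%, 29.9% and 34.2% in wild type and at 56.3%, 52.5% and 59.6% in S34F, with 251 reads in and 224 out. The 88 nt exon chr11:5299579-5299666 went from 13.5%, 9.05% and 8.91% to 23.4%, 24.2% and 23.3%. The 116 nt exon chr2:58415775-58415890 went from 4.89% ± 2.7 to 20.02% ± 3.7 and the 33 nt exon chr2:55801505-55801537 from 5.29% ± 3.1 to 16.7% ± 4.6.

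Falls were called at 2 exons. The 139 nt exon chrX:55781501-55781639, plus strand, was at 24.0%, 27.6% and 41.2% in wild type and at 5.88%, 9.30% and 4.55% in S34F, so that the groups lay far apart (difference -24.3 points, log2 odds -2.59, SE 0.58, edgeR adjusted p = 0.0181). On its weakest junction this exon had 10 reads in wild type and 5 in S34F. It thus reached the minimum of 10 reads only in the group in which it is high, and its p-value comes after that filter. It held in 3 of the 6 fits with a library left out, and with the junction out of the exon alone, which had 15 reads, its adjusted p was 0.202 (0.0063 to 0.202 over all alternatives). The annotated intron just before this one, chrX:55777630-55779824, held 4 combinations from 2 acceptors and 2 donors. They had means of 20.9% to 31.5% in wild type and 8.53% to 14.3% in S34F, and none of the 4 passed (edgeR adjusted p = 0.107 to 0.377), from 20.5 to 46 reads per library. The 121 nt exon chr2:132060155-132060275, plus strand, was at 37.7% in wild-type replicate 1 and at 80.4% and 73.3% in wild-type replicates 2 and 3, against 27.1%, 30.4% and 23.6% in S34F (edgeR adjusted p = 0.0358). Multi-mapped reads made up 12.8% of its inclusion reads. Its adjusted p was 0.000114 without wild-type replicate 1 and 0.191 without S34F replicate 3, the ends of its range over all alternatives.

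**Figure D5:**
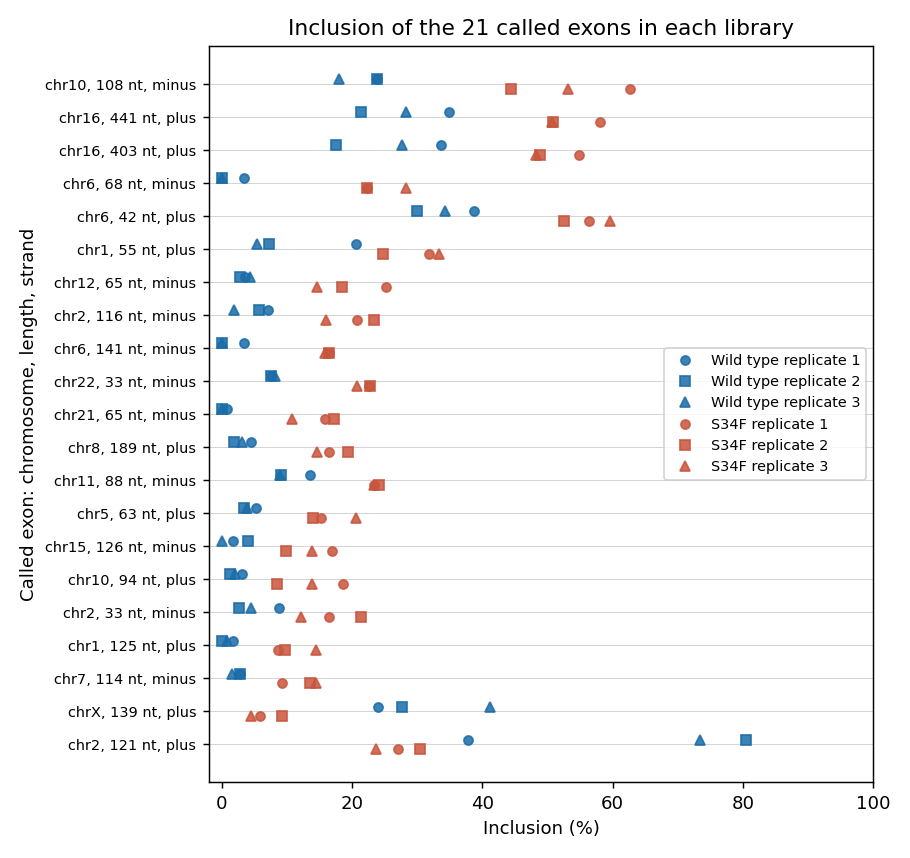
Inclusion in percent (horizontal axis) of the 21 called exons in each of the 6 libraries, 1 row per exon labelled by chromosome, length and strand, ordered by the difference between group means, with 1 marker per replicate and no error bars. In every row the S34F markers lie to 1 side of the wild-type markers, and in the bottom row wild-type replicate 1, at 37.7%, lies far from the other wild-type libraries.

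In structure, the called exons were 33 to 441 nt long with a median of 108 nt, and 10 of 21 had a length divisible by 3 (627 of all 1768 combinations). The median host intron was 4668 nt. In 20 of 21 neither site was annotated, as in 1708 of all 1768 combinations. In 16 of the 21 the junctions in and out were within 4 times of each other, against 1627 (92.0%) of all. They used 19 different acceptors. Their depth was 25.5 to 382 reads per library, with a median of 70.0.

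Another 47 combinations passed the adjusted p-value threshold with a difference under 10 points, 37 rises of 0.468 to 9.16 points and 10 falls of -0.183 to -9.08 points. In all 68 combinations that passed the threshold, the groups did not overlap. The test used the same values, so that this separation is no further support, and it was not compared with the other combinations that passed. At 4 exons no inclusion read was seen in any wild-type library, and these were named after their values were seen. All 4 passed the minimum of 10 pooled reads only through S34F, so that they had to differ, and their p-values are no independent evidence. The 103 nt exon chr7:119424474-119424576, minus strand, was at 4.35%, 3.41% and 5.71% in S34F, with a mean inclusion count of 7, 3.5 and 10 reads (edgeR adjusted p = 0.016). A count of 0 in the wild-type libraries allows 1.86% to 3.53%. For the other three, chr12:100725504-100725545, chr2:12865132-12865235 and chr14:73552690-73552737, the S34F means were 4.76% ± 1.8, 3.22% ± 1.4 and 1.59% ± 0.68 (SD, n = 3 each, edgeR adjusted p = 0.029, 0.0458 and 0.0389). Wild-type counts of 0 allow up to 4.29%, 4.41% and 1.60%. In all 4 the lowest S34F library, at 3.41%, 3.16%, 1.91% and 0.866%, lies within what these counts allow in wild type.

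Large differences were also seen where the spread between libraries was large. The largest of all was in the 72 nt exon chr4:6867919-6867990, plus strand, with 221 reads in and 222 out and no other partner at either site. It was at 80.0% in wild-type replicate 1 but at 23.4% and 19.4% in wild-type replicates 2 and 3, and at 75.8%, 83.3% and 78.8% in S34F. The groups overlapped, and the difference of 38.4 points was not called (edgeR adjusted p = 0.0511). Without wild-type replicate 1 its adjusted p was 2.84e-05, and with that library kept and S34F replicate 3 left out it was 0.216, the ends of its range over all alternatives. The 2 other donors joined to the chromosome 2 acceptor above gave exons of 153 and 146 nt. They share the 343 acceptor reads and the 485 skipping reads with the 121 nt exon, so that similar values are no separate observation. Their own donors had 58 and 185 reads. These 2 exons were at 30.1% and 35.2% in wild-type replicate 1, 69.8% to 80.2% in replicates 2 and 3 and 22.2% to 32.6% in S34F (edgeR adjusted p = 0.0586 and 0.0598).

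Another 3 exons with large differences did not pass. The 77 nt exon chr6:83904914-83904990 was at 30.6%, 20% and 9.09% in wild type and at 43.6%, 51.7% and 42.9% in S34F, from 20 to 39 reads per library (edgeR adjusted p = 0.0740). The 89 nt exon chr5:6605400-6605488 was at 15.8%, 17.8% and 19.0% against 26.3%, 52.9% and 44.7% (adjusted p = 0.0648 by edgeR), with 165 reads in and 10 out. The 69 nt exon chr12:133147654-133147722 was at 45.5%, 52.9% and 66.1% against 30.1%, 28.0% and 35.0% (adjusted p = 0.0787 by edgeR). The groups did not overlap in any of the 3.

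The junction into the exon and the junction out of it were also compared with skipping separately. The junction into the exon, which ends at the exon's own acceptor, gave 35 calls (1.98%, background 2.18%), with 28 rises (background 0.836%) and 7 falls (background 1.35%). The junction out of the exon gave 21 (1.19%, background 1.95%), with 18 rises (background 0.789%) and 3 falls (background 1.17%). Of the 21 exons called on the mean of both, 14 were called on the first and 9 on the second. Against this background, which was not matched for inclusion, the share called was lower on each side, while rises alone (1.58% and 1.02%) were above it.

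A small number of unannotated exons had high inclusion. Mean inclusion over the 6 libraries, from the mean of both inclusion junctions, exceeded 50% in 11 combinations. In some of them the junction into the exon had fewer reads than the skipping junction. These counts were 51 against 63 at chr1:171560291-171560343, 75 against 83 at chr6:42903150-42903211 and 125 against 180 at chr11:5367003-5367129 (intron of 235412 nt). The junctions out of these exons had 1040, 412 and 936 reads and carried their inclusion values. The highest was the 184 nt exon chr7:99926459-99926642, minus strand, at 95.8% to 97.9% in wild type and 92.4% to 97.7% in S34F, with 562 reads in, 35 out and 13 skipping it. Only 9.62% of the reads at its donor went to this intron's acceptor. The linked pair on chromosome 1, chr1:16961522-16961663 and chr1:16969262-16969345, was at 91.3% ± 1.5 and 91.7% ± 2.4 in wild type and at 91.7% ± 5.2 and 93.2% ± 3.3 in S34F, with 29 skipping reads in all. The 53 nt exon chr1:171560291-171560343 has an annotated acceptor and went from 92.5%, 92.4% and 100% to 86.1%, 93.5% and 78.2%, so that the groups overlapped.

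Of the other exons in this range, the 127 nt exon chr11:5367003-5367129 was included against 2 annotated junctions of 235412 and 223617 nt. Its means lay at 81.0% ± 9.7 and 84.4% ± 5.2 in wild type and at 71.4% ± 5.0 and 78.5% ± 7.4 in S34F. Both of its sites were annotated elsewhere, and 1.89% of the reads at its acceptor came from here. The 150 nt exon chr1:207860136-207860285 was at 81.2% ± 7.9 and 85.9% ± 7.9, and the 40 nt exon chr1:143420899-143420938, with 18.0% multi-mapped reads, at 83.7% ± 4.7 and 80.7% ± 0.93 in wild type and S34F. The 62 nt exon chr6:42903150-42903211 was at 74.4%, 69.0% and 67.9% in wild type and at 88.7%, 77.5% and 74.6% in S34F, a difference of 9.84 points (adjusted p = 0.428 by edgeR). None of these highly included exons passed the threshold (edgeR adjusted p = 0.123 to 0.885). The chromosome 4 exon above was the last of the 10 with the highest mean inclusion.

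At the other end stood exons in very heavily spliced introns. The 4 combinations with the most reads had 109412 to 167539 skipping reads and group means of inclusion of at most 0.0635%. The 219 nt exon chr6:133137072-133137290 had 12 reads in and 21 out beside 167539 skipping reads, and the 46 nt exon chr6:34390014-34390059 had 19 and 20 beside 118114. The 65 nt exon chr3:39452787-39452851 was at 0.0542% ± 0.012 in wild type and 0.0635% ± 0.0011 in S34F, and the 52 nt exon chr11:8705413-8705464 at 0.0198% ± 0.010 and 0.0103% ± 0.010. None passed the threshold (edgeR adjusted p = 0.372 to 0.864).

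Of the introns with at least 4 combinations, 5 in all, most combinations shared a splice site with another. The intron chr1:2323398-2327222 held 4 exons of 86 to 312 nt that end at the same donor, which had 1153 reads, and start at acceptors with 395, 239, 12 and 12 reads. Their means were 18.3% to 22.7% in wild type and 23.9% to 29.7% in S34F (edgeR adjusted p = 0.362 to 0.443). Skipping had 2123 reads, and the shared donor's reads enter the value of each of these exons. The values of the exons with 12 reads in thus come almost wholly from that donor and do not show how often their acceptors were used. The intron chr16:28847444-28848071, of 628 nt, held 4 exons of 75 to 165 nt from 2 acceptors and 2 annotated donors, at 4.99% to 19.6% in wild type and 2.72% to 11.5% in S34F (edgeR adjusted p = 0.289 to 0.515). In chr1:29391671-29424318 there were 5, of which the 450 nt exon chr1:29422667-29423116 was at 1.36%, 1.68% and 1.43% in wild type and at 0.463%, 0.637% and 0.381% in S34F, without overlap (edgeR adjusted p = 0.0511). The 4 in chr21:38525578-38528956 had group means of 0% to 1.06% (edgeR adjusted p = 0.106 to 0.958).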

How the data were processed

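Splice junctions of 6 K562 libraries were analysed, 3 with wild-type U2AF1 and 3 with S34F, grouped by their titles. The authors deposited 1 table per library in the layout of STAR's junction output, with raw counts of unique and multi-mapped reads per junction and no normalization; STAR and hg19 are named in the submitters' processing notes, and the STAR version, annotation, junction filters and pass mode are not given in the sources used here. Column 9, the maximum overhang in nt, and the strand, motif and annotation codes were used as deposited by the authors. Missing junctions were counted as 0 (780566 junctions in all).

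Events were built with Python 3.11.15 and pandas 2.3.3. The test was edgeR 4.0.16 (R 4.3.3), glmQLFit with robust dispersion in legacy mode, on 2 counts per library and event (the rounded mean of both inclusion junctions, and skipping), with library, count type and count type by S34F as terms, the last being the change in log2 odds. Its SE is the absolute coefficient over the square root of F. The library term removes depth and transcript abundance. The fitting script was tested on simulated data. Limits at a count of 0 use 3 counts per library ; they cover counting error alone, as PCR copies cannot be told from separate molecules here. Same-group libraries differed by more than sampling noise (chi-square per degree of freedom of at least 4.86). DESeq2 1.42.0 and limma 3.58.1 (pseudocount of 0.5) were alternatives.

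The members and lists were chosen with earlier results of these data known. Exons were named by rule: up to 15 calls in each direction by adjusted p, the 10 with the highest inclusion, the 6 largest differences not called, the 4 with the most reads, the exons nearest the limits, and introns with several members, of which those with at least 4 are given.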

Additional observations from a re-analysis of the deposited data

How the results depend on the processing

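The count of 21 called unannotated exons stayed within 1.5 times with the newer dispersion estimate (18), multi-mapped reads added (20), the junction out of the exon alone (21), members whose inclusion junctions were within 4 times of each other (16), 1 skipping junction per exon (21) and limma with a trend (18, chosen after seeing the data). Fewer were called by DESeq2 (8) and by limma without a trend (0). It fell to 7 with at least 50 reads in every library, to 8 with an overhang of at least 20 nt and to 7 with a minimum difference of 20 points. It was 38 with no minimum per library (2313 combinations), 61 with both inclusion junctions summed, 35 with the junction into the exon alone and 68 with no minimum difference. With higher pooled minimums on each inclusion junction, chosen after seeing the data, 13 of 676 (20 reads), 8 of 137 (50) and 3 of 44 (100) were called. Leaving out each library gave 0 to 63. With the replicate block it was 7. The deviations of same-numbered libraries from their group means had correlations of -0.082, -0.020 and -0.058. With deviations centred within groups of 3, these values cannot decide whether the numbers mark a shared culture or batch, which the labels do not state. The median difference of 0.58 points stayed within 1 SD of the libraries' medians (0.40) except with at least 50 pooled reads per inclusion junction (1.19), with summed junctions (1.12) and as a mean over members (1.07), and was 0.429 to 0.714 with a library left out. No exon named singly changed direction past the threshold. Of the 1768 members, 4 to 185 per library had 0 inclusion reads. The cause of these shifts was not tested.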
